A study of Rattus norvegicus with 82 samples.

Results

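Heart muscle cells draw most of their energy from long-chain fatty acids, and the 38 genes described here are the listed enzymes, carriers and regulators of that supply chain that were read out in rat cardiomyocytes. They were chosen by symbol, and all 38 were present among the 17337 genes of the count table and passed the filter on low counts that left 11954 genes for testing. The cells came from the right ventricle (RV) and left ventricle (LV) of 41 rats, F1 offspring of female Wistar Kyoto and male Lewis rats, and each rat gave 1 library per ventricle, 82 libraries in 12 groups. Pulmonary artery banding (PAB) loads the RV and aortic banding (AOB) loads the LV, through a clip that did not yet constrict the vessel when it was placed in the young rat; controls were sham-operated. By the labels the compensatory groups (H) were 11 weeks old after 7 weeks: Sham-H with 7 rats, PAB-H with 6 and AOB-H with 6. The decompensated groups (F) were PAB-F with 6 rats at 28 weeks of age after 22 weeks, AOB-F with 7 rats at 31 weeks after 26 weeks, and Sham-F with 9 rats at 31 weeks after 26 weeks. PAB-F is therefore younger than the Sham-F group it was compared with, and banding and that age gap cannot be told apart. The study's text gives other ages than the labels, and the ages here follow the labels. Cells were isolated by collagenase digestion and repeated low-speed centrifugation, so other cell types were depleted and not sorted out. Both sexes were present in every group, in unequal parts. Males and females numbered 3 and 4 in Sham-H, 4 and 2 in PAB-H and 2 and 4 in AOB-H. In the F groups they numbered 4 and 5 in Sham-F, 4 and 2 in PAB-F and 4 and 3 in AOB-F.

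In the mitochondrial pathway, fatty acids are taken up and bound (Cd36, Fabp3), released from lipoproteins by lipoprotein lipase (Lpl), activated to acyl-CoA (Acsl1), handed across the inner membrane as carnitine esters (Cpt1b, Cpt2) and shortened in repeated rounds of dehydrogenation, hydration, dehydrogenation and thiolysis. The electrons leave through the electron transfer flavoprotein (Etfa, Etfb) and its dehydrogenase (Etfdh). Nuclear receptors of the PPAR and ERR families with their PGC-1 coactivators switch these genes on together, and pyruvate dehydrogenase kinases such as Pdk4 hold back the competing use of glucose. In failing hearts the program is classically described as falling back.

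The libraries held between 6675287 and 19665439 counts on genes, with a median of 13074485.5, and the members together took between 1.46% and 2.79% of them. Defining cardiomyocyte transcripts (Myh6, Tnnt2, Actc1 and 6 others) took 6.07% to 14.3% of counts, whereas 4 of 6 adipocyte markers were at 0 in 45 to 68 of the 82 libraries and the sum of that list never passed 0.00101% of counts. The first principal component of the genes that are no members held 47% of their variance and set the LV libraries of the F groups apart from the rest. On that axis 5 LV libraries lay away from their own groups, namely LV Sham-H replicates 4 and 5, LV PAB-H replicate 2, LV AOB-H replicate 6 and LV PAB-F replicate 5.

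Compared per length, as the authors' FPKM (fragments scaled to gene length and library size), most members were among the more highly expressed genes. In order of median FPKM, the first 34 of the 38 stood at percentile 78.2 of the tested genes or above. The last, Pnpla2, stood at percentile 3.5. Fabp3, the cytosolic carrier of fatty acids, had the highest median over all libraries at 1754 FPKM, followed by Lpl at 1463 FPKM. Acadl, the long-chain acyl-CoA dehydrogenase, stood at 1015 FPKM and Hadhb, the thiolase subunit of the trifunctional protein, at 1011 FPKM. Acaa2, the thiolase for shorter chains, followed at 542.1 FPKM. Of the regulators, Esrra had a median of 97.89 FPKM, Ppara 75.14 FPKM, Ppargc1a 51.05 FPKM, Ppargc1b 45.16 FPKM and Esrrg 28.66 FPKM. The lowest were Angptl4, a secreted inhibitor of lipoprotein lipase, at 4.69 FPKM, the thioesterase Acot1 at 0.479 FPKM and Pnpla2, the triglyceride lipase of lipid droplets, at 0.193 FPKM. Pnpla2 had at most 30 raw counts in any library, and the fibroblast collagen Col1a2 had at most 5 beside up to 7636 for its partner Col1a1. By the study's methods reads that overlapped more than 1 gene were not counted, so a low value of a single gene in this table need not reflect its abundance. Acot1 and Acot2 are close paralogues whose reads may have been split.

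The first comparison asked what pressure load does to these genes in the failing RV. Of the 38 members, 0 rose and 5 fell when RV PAB-F was compared with RV Sham-F (edgeR quasi-likelihood test with Benjamini-Hochberg adjustment over 11954 genes, adjusted p under 0.05, which is what "rose" and "fell" mean throughout). Among all genes 7.66% rose and 3.42% fell. The 5 members were Hadha, Hadh and Eci1 of the oxidation spiral, the electron carrier subunit Etfb and the nuclear receptor Esrrg. The other 33 did not pass the test, but 37 of the 38 estimates lay below 0 and their median was -0.30 on the log2 scale, beside 0.02 for all genes, of which 47.9% lay below 0 (32 of 38 members lay below 0 with plain total counts as the scale). At an unadjusted p under 0.05 there were 16 members, all 16 of them lower, against 27.87% of all genes in either direction. Lower transcript levels in bulk cardiomyocyte RNA can come from fewer transcripts per cell or from fewer cardiomyocytes in the preparation, and these cannot be told apart. The plot of member fold changes shows these estimates beside the other loaded groups.

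**Figure D1:**
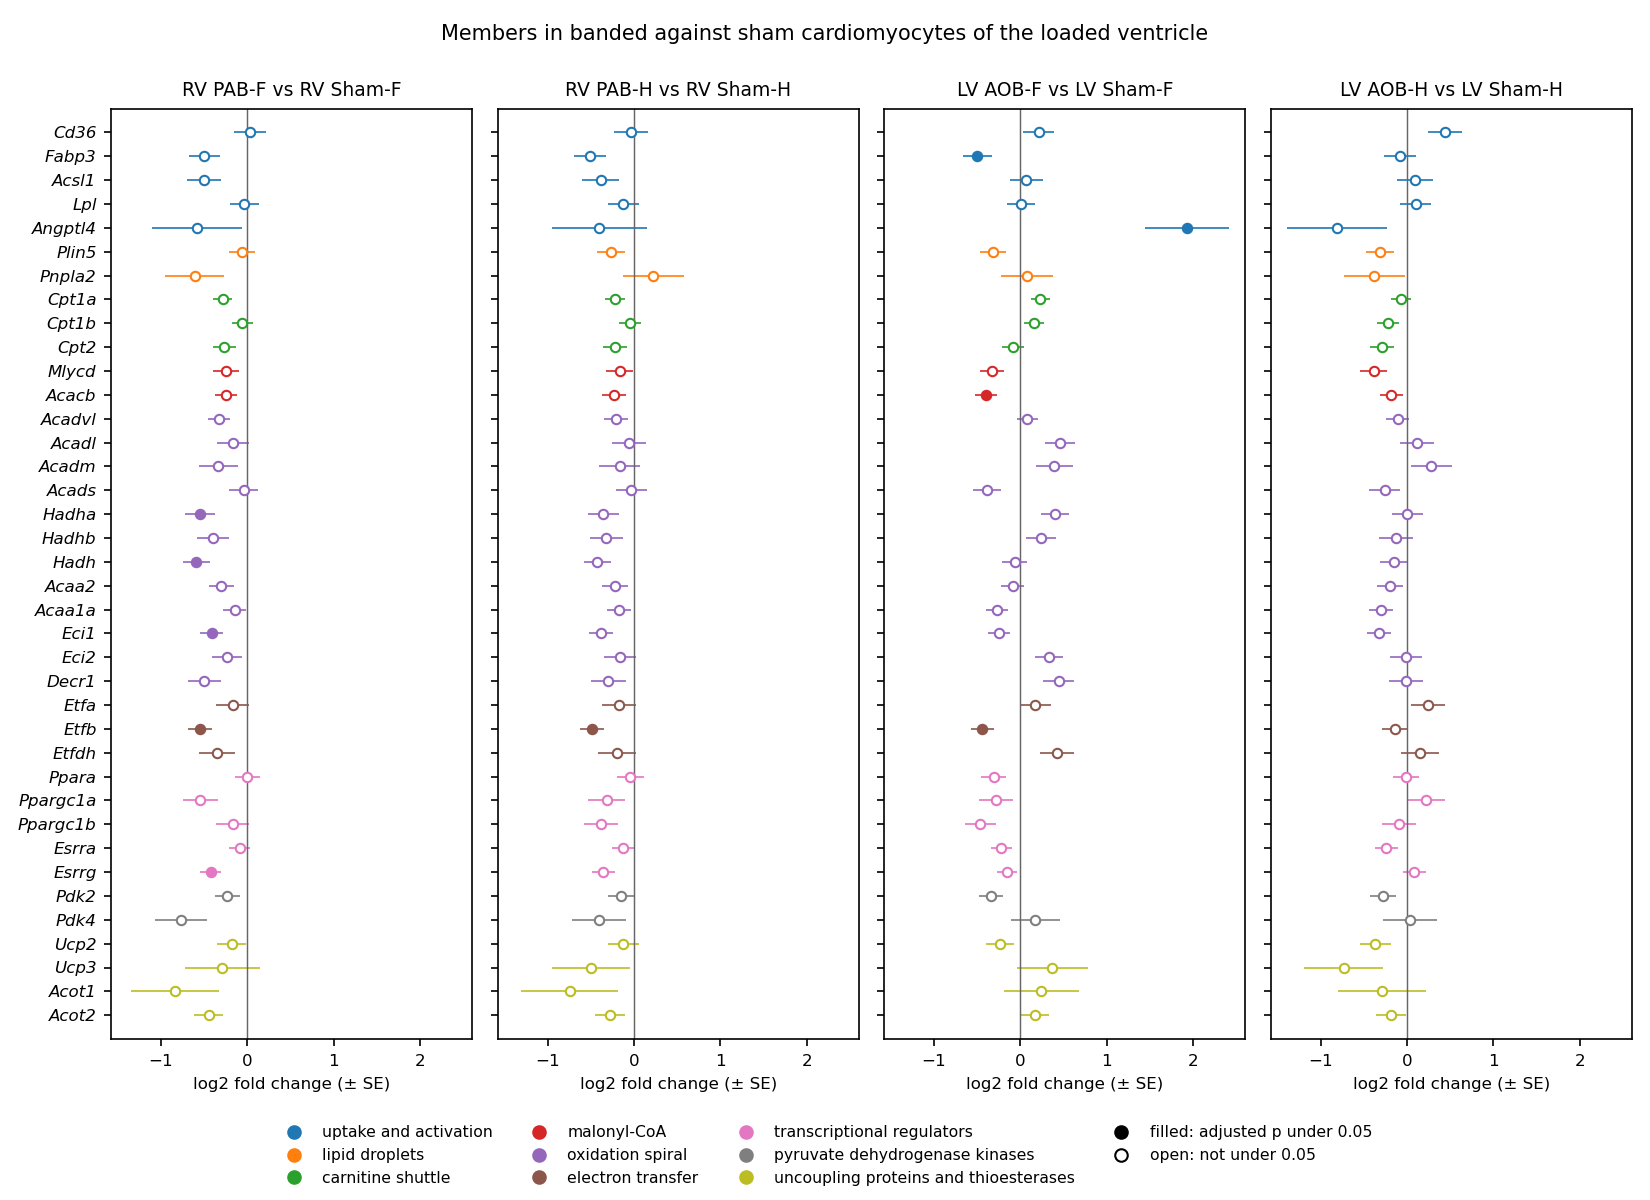
Log2 fold change with its standard error (horizontal axis) of each of the 38 members (vertical axis, coloured by role) in 4 comparisons of banded with sham cardiomyocytes of the loaded ventricle; filled points have an adjusted p under 0.05. In RV PAB-F 37 of the 38 estimates lie left of 0 and in RV PAB-H 37, whereas in LV AOB-F 18 do and Angptl4 stands far to the right with a wide error.

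Hadha encodes the subunit of the trifunctional protein that carries out the hydration and second dehydrogenation of long-chain acyl-CoA. Its normalized count (reads scaled to a common library size) was 14640 at the lowest, 16680 at the median and 19650 at the highest in RV Sham-F, and 6650, 12420 and 14590 in RV PAB-F. All 6 banded libraries lay below all 9 sham libraries, and the log2 fold change was -0.55 ± 0.17 (SE, adjusted p = 0.0277 by edgeR). Hadhb, which encodes the partner subunit, had an estimate of -0.40 ± 0.19 that did not pass (adjusted p = 0.148 by edgeR).

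Hadh, the dehydrogenase for medium and short chains, ran from 4950 through 5668 to 6549 in RV Sham-F and from 2073 through 3971 to 5252 in RV PAB-F. Here 5 of 6 banded libraries were below every sham library, with a log2 fold change of -0.59 ± 0.15 (adjusted p = 0.0070 by edgeR). Eci1, the isomerase that prepares unsaturated chains for the spiral, measured 2923, 3820 and 4416 (lowest, median, highest) in RV Sham-F and 1899, 3030 and 3775 in RV PAB-F. Only 3 of the 6 banded libraries lay below the sham range, and the log2 fold change was -0.41 ± 0.13 (adjusted p = 0.0308 by edgeR).

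Etfb, the beta subunit of the electron transfer flavoprotein, fell from a range of 2509 to 3813 with a median of 3171 in RV Sham-F to a range of 1515 to 2802 with a median of 2234 in RV PAB-F. The log2 fold change was -0.55 ± 0.14 (adjusted p = 0.0048 by edgeR), with 5 of 6 banded libraries below all sham libraries. Its partner Etfa had an estimate of -0.17 ± 0.19 and Etfdh of -0.35 ± 0.21, and neither passed. Esrrg, an orphan nuclear receptor that drives oxidative genes, went from 1425, 1723 and 1784 in RV Sham-F to 907.8, 1262 and 1531 in RV PAB-F, again with 5 of 6 libraries below the sham range. Its log2 fold change was -0.43 ± 0.12 (adjusted p = 0.0167 by edgeR).

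Several members came close without passing. Fabp3 had a log2 fold change of -0.50 ± 0.18 (adjusted p = 0.0539), Ppargc1a of -0.54 ± 0.20 (0.0697), Decr1 of -0.50 ± 0.19 (0.0726) and Pdk4 of -0.77 ± 0.30 (0.0825), all by edgeR. For Ppargc1a and Acsl1 the groups did not overlap, and with Hadha these were 3 members beside 1.47% of all genes that were lower without overlap. At the other end Ppara stood at 0.00 ± 0.15, Lpl at -0.03 ± 0.17, Cd36 at 0.03 ± 0.19 and Cpt1b, the muscle carnitine palmitoyltransferase, at -0.06 ± 0.12. Whether the members differ from each other in their response was not tested.

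How many members pass depended on the fit. With only the RV PAB-F and RV Sham-F libraries 12 members fell (10.2% of all genes), with DESeq2 11 (4.97%) and with its prior on fold changes 12 (4.98%), and without RV PAB-F replicate 1 only 1 (Etfb) did. That library had the lowest mean level of the members of all 82, 7.14 on the log2 CPM scale against 7.77 to 8.07 for its 5 group mates. Without RV PAB-F replicate 2 or 5 the count was 3, and without RV PAB-F replicate 4 or 6 it was 8. For fits without 1 library the share of all genes is not given here, so whether these changes are particular to the members is not shown. By the study's own criteria (a log2 fold change beyond 1, p of at most 0.01 and a mean above 50) 0 members passed, against 1.9% of all genes.

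Markers of other cell types moved with this comparison. Of 9 tested fibroblast markers 7 rose in RV PAB-F, and their summed share of counts ran from 0.0469% to 0.27% against 0.0263% to 0.071% in RV Sham-F. Of 7 endothelial markers 2 rose (0.088% to 0.201% against 0.0643% to 0.109%), of 7 mural cell markers 2 (0.0347% to 0.0717% against 0.0251% to 0.0398%) and of 8 macrophage markers 2 (0.00597% to 0.0222% against 0.00557% to 0.00976%). Cardiomyocyte markers took 9.55% to 13.3% of counts in RV PAB-F and 11.5% to 14.3% in RV Sham-F, and 1 of 9 rose. The part of these lists in the lower member levels was not tested. The first principal component of the non-member genes was then used as a covariate, an analysis chosen after the data were seen. With it 3 members fell and Cd36 rose (4.12% and 6.86% of all genes). Of the 38 estimates 28 stayed below 0, with a median of -0.17. On that component RV PAB-F ran from -30.4 to 5.1 and RV Sham-F from -54.2 to -30.7, without overlap. The covariate and banding are therefore not separate in this comparison.

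**Figure D2:**
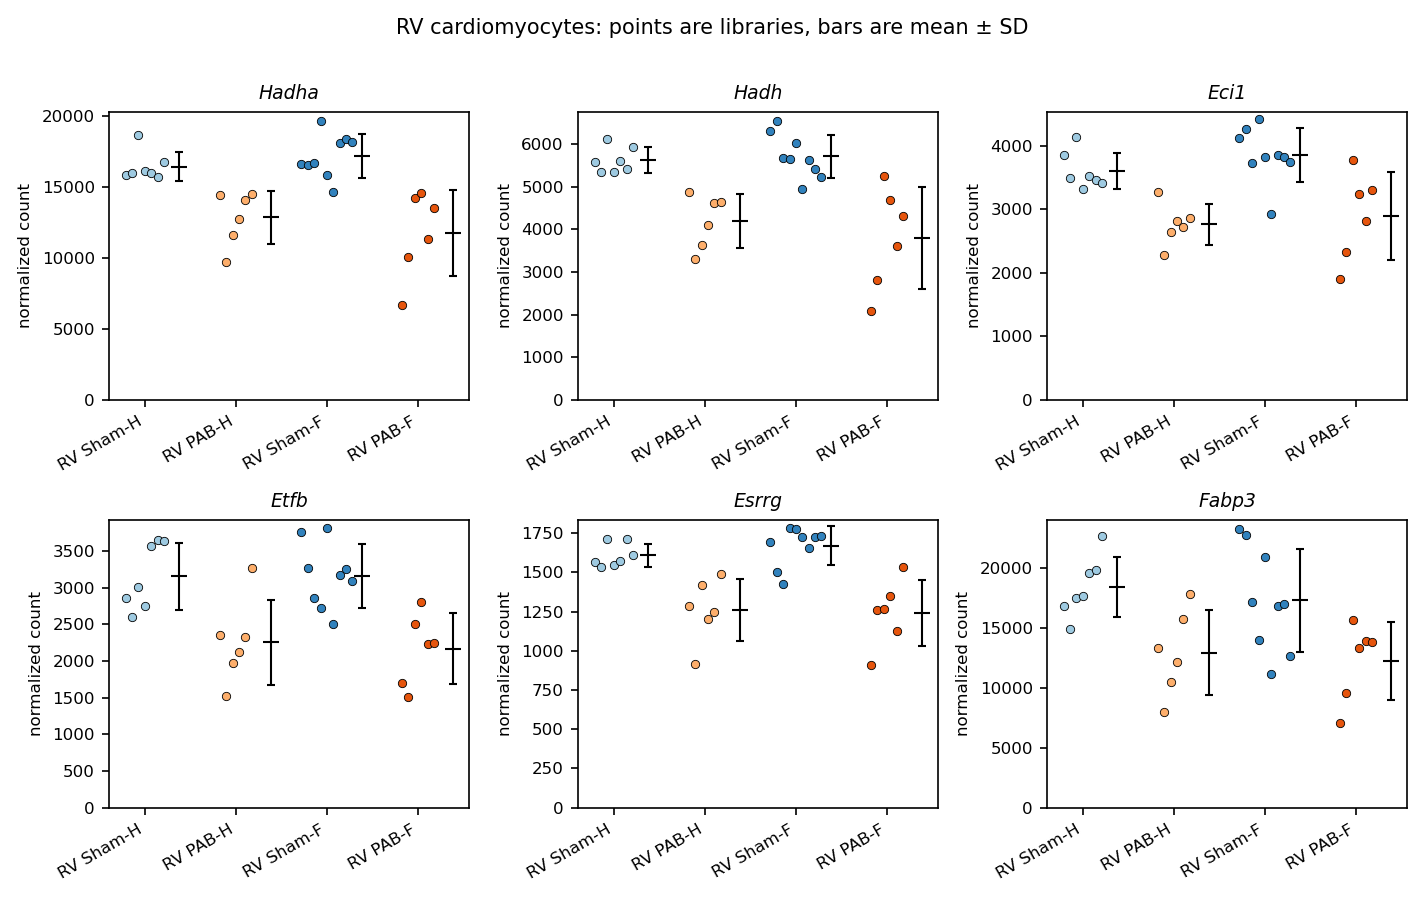
Normalized count (vertical axis, from 0) of the 5 members that fell in RV PAB-F and of Fabp3 in each RV library of the sham and PAB groups; points are libraries and bars the mean ± SD. For Hadha every PAB-F library lies below every Sham-F library, and in PAB-H the groups lean the same way with fewer tests passed.

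At the earlier stage, RV PAB-H against RV Sham-H, 0 members rose and 1 fell, while 3.91% of all genes rose and 0.594% fell. The 1 was Etfb, at 2596, 3010 and 3646 (lowest, median, highest) in RV Sham-H and 1516, 2220 and 3262 in RV PAB-H, with 5 of 6 banded libraries below the sham range. Its log2 fold change was -0.48 ± 0.14 (adjusted p = 0.0352 by edgeR). The call was lost when any 1 of 7 libraries was left out (RV Sham-H replicates 5, 6 and 7 and RV PAB-H replicates 1 to 4), and without RV PAB-H replicate 6 there were 3 calls. With sex as a covariate it did not pass either. Of the 38 estimates 37 were below 0, with a median of -0.22 beside 0.00 for all genes. Fabp3 at -0.51 ± 0.19, Hadh at -0.42 ± 0.16, Eci1 at -0.38 ± 0.14 and Esrrg at -0.35 ± 0.13 did not pass, although for Hadh, Eci1 and Esrrg all 6 banded libraries lay below every sham library. The same held for Acsl1, Acadvl, Hadha and Acot2, 7 members in all that did not pass, and for 1.92% of all genes. With only the PAB-H and Sham-H libraries of the RV in the fit 11 members fell, beside 5.69% of all genes. Of 9 tested fibroblast markers 9 rose here (0.0496% to 0.372% of counts against 0.0414% to 0.0638%), and 1 endothelial and 1 mural marker did; their part in the result was not tested. The difference between the stages of RV load was tested directly, and 0 members differed (edgeR, 0 at an unadjusted p under 0.05 and 0 by DESeq2, with 0% of all genes).

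The failing LV was compared next. Between LV AOB-F and its sham group 1 member rose and 3 fell, among 8.54% of all genes that rose and 4.35% that fell. The median estimate over the members was 0.03 beside 0.04 for all genes, and 18 of 38 lay below 0. At an unadjusted p under 0.05 by edgeR there were 16 members, 6 higher and 10 lower, against 28.68% of all genes in either direction. The 3 that fell were Fabp3, the malonyl-CoA synthesizing carboxylase Acacb and Etfb, and the 1 that rose was Angptl4.

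Fabp3 ran from 8673 through 13190 to 17910 in LV Sham-F and from 5817 through 9034 to 15380 in LV AOB-F, a log2 fold change of -0.50 ± 0.17 (adjusted p = 0.0381 by edgeR). Acacb, whose product blocks the carnitine gate, went from 10370, 18200 and 24780 to 10030, 12980 and 18910, a log2 fold change of -0.40 ± 0.13 (adjusted p = 0.0239 by edgeR). Etfb stood at 2442, 3221 and 4634 in LV Sham-F and 1903, 2340 and 2656 in LV AOB-F, with 4 of 7 banded libraries below the sham range and a log2 fold change of -0.44 ± 0.13 (adjusted p = 0.0166 by edgeR). For all of them the groups overlapped, and of all genes only 0.0586% were higher and 0.0251% lower without overlap. Leaving out 1 library at a time ended the call for Fabp3 in 9 of 16 fits, for Acacb in 7 and for Etfb in 1. The count of calls was 1 without LV AOB-F replicate 7, 2 without LV Sham-F replicate 5 or 7 or LV AOB-F replicate 1 or 6, 8 without LV Sham-F or LV AOB-F replicate 3, and 10 without LV AOB-F replicate 4. With only the compared groups in the fit 0 members passed in either direction. Shares of all genes for these fits are not given here, so the changes need not be particular to the members. Without the 5 LV libraries that stand apart, none of which belongs to the compared groups, 7 members rose and 4 fell (15.5% and 6.72% of all genes). Of 9 tested fibroblast markers 2 rose, of 7 endothelial 2, of 7 mural 1 and of 8 macrophage markers 4; their part in the result was not tested.

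Of the 5 regulators, all 5 estimates were below 0 in LV AOB-F, between -0.46 and -0.16, and none passed the test (edgeR, 2 at an unadjusted p under 0.05). In the oxidation spiral Acadl at 0.46 ± 0.18, Decr1 at 0.44 ± 0.18 and Hadha at 0.40 ± 0.16 leaned upward and Acads, the short-chain dehydrogenase, at -0.39 ± 0.16 leaned downward, all short of the threshold. With the principal component as a covariate 11 members passed, 4 higher and 7 lower (12.1% and 6.3% of all genes). The 4 were Angptl4, Acadl, Hadha and Etfdh, and the 7 were Fabp3, Acacb, Etfb, Ppara, Ppargc1a, Ppargc1b and Esrrg.

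Angptl4 rose by 1.93 ± 0.48 on the log2 scale in LV AOB-F (adjusted p = 0.0052 by edgeR), the one member that also met the study's criteria, which 1.21% of all genes met. The value came from few animals. In LV Sham-F it ran from 44.25 through 140.3 to 171.9, and in LV AOB-F from 81.43 through 131 to 1669, so that 4 of 7 banded libraries lay inside the sham range. Replicates 6 and 7 held 885 and 1669, and replicate 5 held 391. These are the 3 female rats of AOB-F, and the 4 libraries inside the sham range are from the males. Sex and single animals cannot be told apart here. Without replicate 7 the log2 fold change was 1.18 (adjusted p = 0.112 by edgeR).

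Those animals stood out in both ventricles and for further genes, a pattern noticed after the values were seen. In the unloaded RV of the same rats Angptl4 was at 454 and 872, against 112 to 417 in the other 5 AOB-F rats. Plin2, which coats lipid droplets and is no member, was at 4738 and 8142 in the LV against 702 to 1060 in the others, and at 3064 and 3864 in the RV against 1392 to 1540. Acot2, a mitochondrial thioesterase, was at 9043 and 9450 in the LV against 2679 to 5877, and Cpt1a at 2295 and 2644 against 1154 to 2116. In LV Sham-F Plin2 ran from 595 to 933, Acot2 from 3711 to 7110 and Cpt1a from 1353 to 2300. Replicate 6 thus lay inside the sham range for Cpt1a. In the LV Pdk4 did not follow, at 2790 and 4129 within the 1671 to 6178 of the others. Nor did Ucp3 there, at 264 and 553 within 164 to 830. In the RV Pdk4 was at 8886 and 11326 within 6343 to 12291. Ucp3 in the RV was at 500 and 879 against 239 to 726, so that replicate 7 was above the others. With the libraries of both rats left out, a step chosen after the data were seen, Angptl4 had a log2 fold change of 0.37 (adjusted p = 0.714 by edgeR) and 0 members passed in LV AOB-F.

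**Figure D3:**
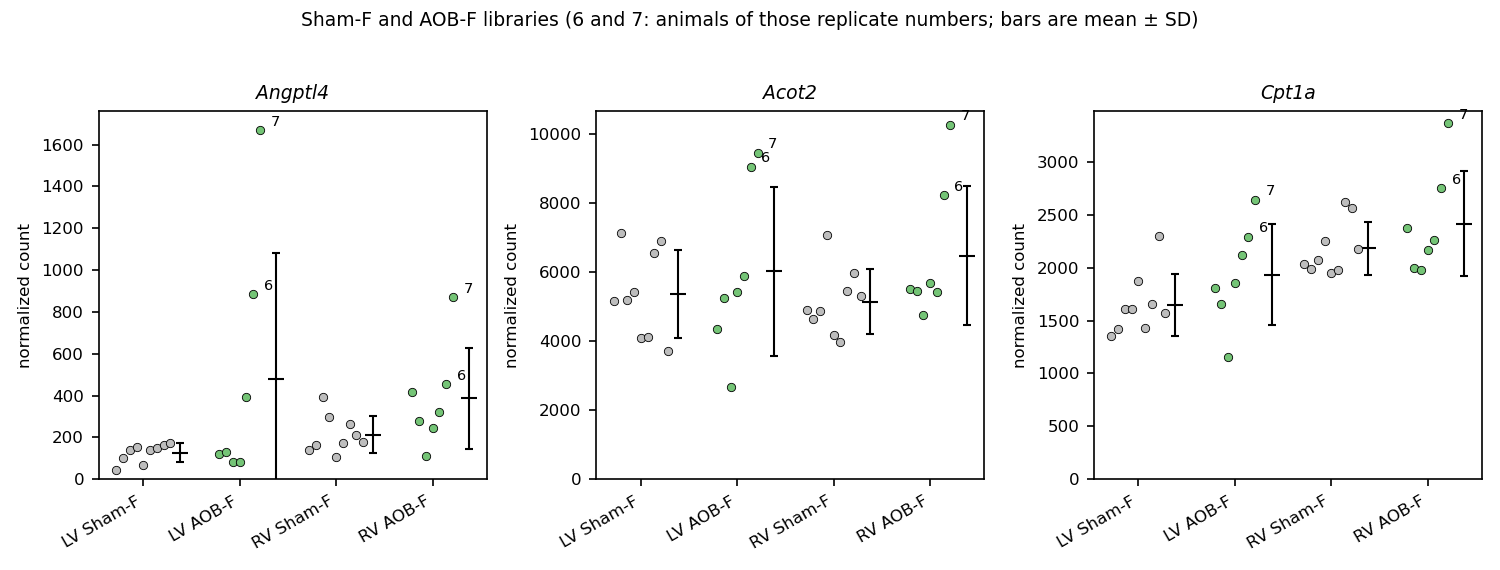
Normalized count (vertical axis, from 0) of Angptl4, Acot2 and Cpt1a in the LV and RV libraries of Sham-F and AOB-F rats; points are libraries, bars the mean ± SD (the lower bar of LV AOB-F for Angptl4 runs below 0 and is not drawn there), and 6 and 7 mark the libraries of those replicate numbers. The libraries of both rats are the highest of their AOB-F groups in both ventricles.

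In the LV under compensated load, LV AOB-H against LV Sham-H, 0 members passed by edgeR and 0 by DESeq2, with 6 at an unadjusted p under 0.05. All genes gave little here, with 0.00837% higher and 0.00837% lower. The largest estimates were Angptl4 at -0.81 ± 0.58, Ucp3, an uncoupling protein, at -0.73 ± 0.46 and Cd36 at 0.45 ± 0.20.

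The unloaded ventricles gave no member either. Called genes were 0% of all genes in LV PAB-F, 0% in LV PAB-H, 0.0669% in RV AOB-F and 0% in RV AOB-H, and 0 members passed by edgeR or DESeq2 in any of the 4. Members at an unadjusted p under 0.05 numbered 3, 0, 4 and 0 in that order. Tested as a difference between the ventricles of a banded heart, 0 members differed by edgeR or DESeq2 for PAB-F (0.351% of all genes), for PAB-H (0%), for AOB-F (0%) and for AOB-H (0%). Members at an unadjusted p under 0.05 numbered 9, 2, 5 and 0 in that order. RV and LV libraries of 1 rat form pairs, and with the rat as a block the log2 fold change of PAB-F was lower in the RV than in the LV for 2 members (2.34% of all genes higher and 0.577% lower). The difference was -0.64 for Hadh (adjusted p = 0.0328 by edgeR) and -0.90 for Pdk4 (adjusted p = 0.016). In the LV without the block neither passed, with Hadh at -0.00 ± 0.15 and Pdk4 at 0.26 ± 0.29, and Pdk4 did not pass in RV PAB-F either. Without the 5 LV libraries that stand apart all these counts of passing members in unloaded LVs and between ventricles stayed at 0, as did that of LV AOB-H. Likewise 0 members differed between AOB-F and AOB-H in the LV (0% of all genes, 2 members at an unadjusted p under 0.05, 0 by DESeq2).

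The responses of the failing RV and the failing LV were then set against each other in 1 contrast. Ventricle, type of band and time after surgery (22 weeks in PAB-F, 26 in AOB-F) differ together in it and cannot be told apart. PAB-F was also younger than Sham-F (28 against 31 weeks), whereas AOB-F was of the same age. Both sham groups came from the same 9 rats, and that pairing was not in the fit. For 0 members was the RV response higher and for 4 it was lower than the LV response, beside 1.31% of all genes higher and 1.85% lower. Hadha had -0.55 ± 0.17 in the RV and 0.40 ± 0.16 in the LV, a difference of -0.95 ± 0.24 (adjusted p = 0.0176 by edgeR). For Decr1, the reductase for unsaturated chains, the values were -0.50 ± 0.19 and 0.44 ± 0.18, a difference of -0.94 ± 0.26 (adjusted p = 0.0339 by edgeR). Angptl4 differed by -2.51 ± 0.72 (adjusted p = 0.0382 by edgeR), from -0.58 ± 0.52 in the RV and 1.93 ± 0.48 in the LV. Cpt1a, the liver-type carnitine palmitoyltransferase, differed by -0.52 ± 0.15 (adjusted p = 0.0463 by edgeR), from -0.29 ± 0.11 and 0.23 ± 0.11. All of these calls were lost without RV PAB-F replicate 1, and Hadha alone passed without LV AOB-F replicate 7. Again 1 call was left without LV AOB-F replicate 6 or RV PAB-F replicate 5, and 2 without LV Sham-F replicate 1, LV AOB-F replicate 5 or RV PAB-F replicate 2 or 6; without LV Sham-F replicate 3 there were 6. Without AOB-F rats 6 and 7 there were 0. Without the 5 LV libraries that stand apart, none of which belongs to these groups, 12 members passed, all 12 lower in the RV response, beside 10.1% of all genes lower.

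For 4 of the members that fell under load the bases before the transcription start are shown, since the same families of nuclear receptors bind many of these promoters. Of the 38 members 33 were matched by gene identifier in RefSeq (build GRCr8) to windows of 250 bases before and 50 after the start. Hadha and Hadhb lie head to head on chromosome 6, with 300 bases between their annotated starts, so that 1 stretch serves as the upstream region of both. The 200 bases common to both windows are printed on the Hadha strand. Eci1 and Etfb are shown as members that fell in RV PAB-F, and Acacb as one that fell in LV AOB-F; Hadhb did not pass under load and appears through the stretch it shares. Capitals mark the nuclear receptor half-site AGGTCA, searched on both strands, where it appears as TGACCT on the other one.
Hadha and Hadhb, chr6:31907551-31907750, plus strand: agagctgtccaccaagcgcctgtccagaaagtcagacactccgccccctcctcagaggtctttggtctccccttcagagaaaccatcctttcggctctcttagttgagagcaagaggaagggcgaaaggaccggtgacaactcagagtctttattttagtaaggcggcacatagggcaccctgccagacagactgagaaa
Eci1, chr10:13961000-13961249, plus strand: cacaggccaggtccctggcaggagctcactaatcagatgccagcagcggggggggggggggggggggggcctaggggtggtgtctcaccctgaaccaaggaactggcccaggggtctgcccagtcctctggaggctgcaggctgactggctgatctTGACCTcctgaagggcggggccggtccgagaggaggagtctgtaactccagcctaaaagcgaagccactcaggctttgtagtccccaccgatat
Etfb, chr1:102988249-102988498, plus strand: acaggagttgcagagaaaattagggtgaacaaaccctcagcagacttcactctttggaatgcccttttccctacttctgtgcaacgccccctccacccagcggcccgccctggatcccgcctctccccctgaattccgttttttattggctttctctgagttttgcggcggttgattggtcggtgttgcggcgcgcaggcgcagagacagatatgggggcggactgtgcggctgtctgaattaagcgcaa
Acacb, chr12:48138215-48138464, minus strand: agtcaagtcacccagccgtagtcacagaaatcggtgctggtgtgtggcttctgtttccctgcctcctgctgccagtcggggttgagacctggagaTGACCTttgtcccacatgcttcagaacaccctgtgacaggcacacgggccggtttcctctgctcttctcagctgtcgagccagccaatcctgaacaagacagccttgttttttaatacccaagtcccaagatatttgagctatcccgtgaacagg

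The half-site AGGTCA was present in the 300-base windows of 8 of the 33 members, or 24.2%, and in 16.2% of all 33469 windows. The members were Plin5, Acacb, Acadvl, Hadhb, Eci1, Eci2, Esrrg and Ucp3, and Hadhb carries it only past its start, outside the stretch shown. A further copy in Acacb spans the start and is cut off in the bases shown. The longer AAGGTCA, which contains it, was found in Acacb and Hadhb, 6.06% of the members and 4.61% of all windows. A member counted if any of its windows held the motif, and Esrrg has 4 windows. The shares of members and of windows are thus not in the same unit. A direct repeat of the half-site with any 1 base between its copies was in 0 members and 0.0538% of all windows, and TCAAGGTCA, which also contains the half-site, in 0 members and 0.433%. These are matches of letters in a short window and say nothing of binding.

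The larger differences among these 82 libraries were between the ventricles. In Sham-F rats 21 members were higher in the RV than in the LV and 7 lower, at 35.6% and 38.6% of all genes, so that calls as such were common and the division of the members leaned to the RV. For 20 of the 28 the 9 RV and the 9 LV libraries did not overlap, 16 of them higher in the RV and 4 lower. Among all genes 22.4% were higher and 19.4% lower in the RV without overlap. The median log2 difference (RV over LV) was 0.41 over the members beside -0.07 over all genes. By the study's criteria 14 members passed, all 14 higher in the RV, with 27.7% of all genes in either direction. The map of group medians shows this division.

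**Figure D4:**
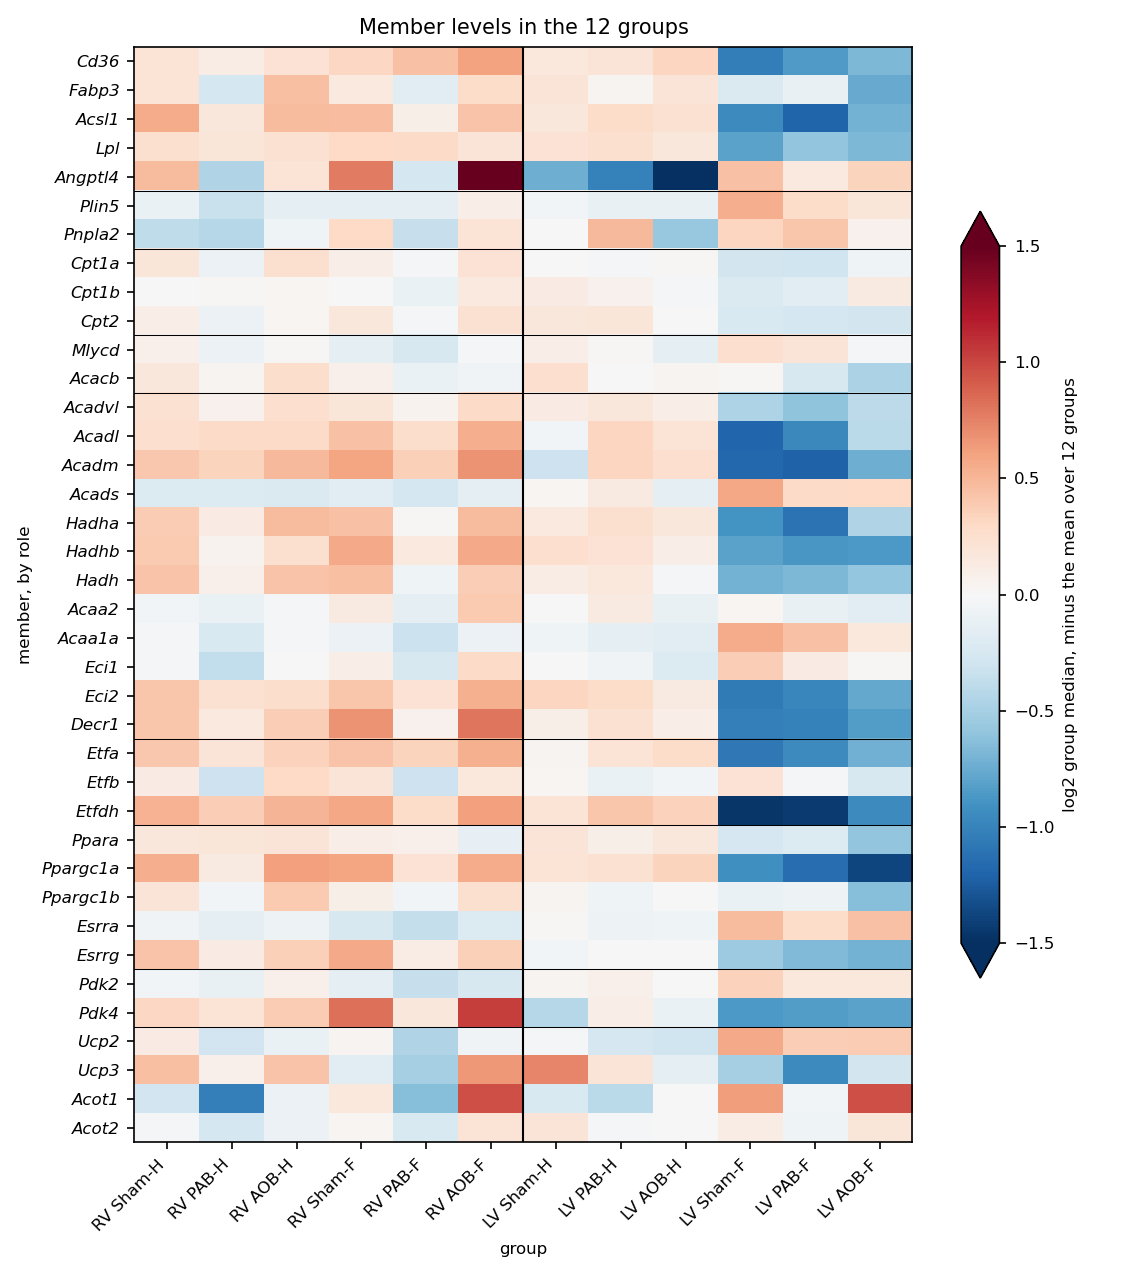
Colour gives the log2 of each group's median normalized count minus the mean of that value over the 12 groups (red higher, blue lower) for the 38 members, ordered by role. In the LV Sham-F, AOB-F and PAB-F columns most members of uptake, oxidation spiral and electron transfer are blue, while Plin5, Acads, Acaa1a, Esrra and Ucp2 are red there.

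Etfdh, the membrane-bound dehydrogenase that passes electrons to ubiquinone, had the largest difference. It ran from 1501 through 1910 to 2705 in LV Sham-F and from 6773 through 7864 to 8600 in RV Sham-F, 1.97 ± 0.19 higher on the log2 scale (adjusted p = 1.98e-14 by edgeR). Decr1 went from 834, 1048 and 1637 in the LV to 2869, 3402 and 3721 in the RV, a log2 difference of 1.64 ± 0.17 (adjusted p = 3.16e-13 by edgeR). Eci2, the peroxisomal and mitochondrial isomerase, stood at 1068, 1341 and 1635 in the LV and 2965, 3757 and 4085 in the RV, a log2 difference of 1.44 ± 0.16 (adjusted p = 1.04e-12 by edgeR). For Esrrg the values were 652.6, 801.5 and 1011 in the LV and 1425, 1723 and 1784 in the RV, a log2 difference of 1.05 ± 0.11 (adjusted p = 3.96e-13 by edgeR). In none of these genes did the ventricles overlap.

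By role, 4 of 5 members of uptake and activation, 9 of 12 of the oxidation spiral, 2 of 3 of electron transfer, 2 of 3 of the carnitine shuttle and 3 of 5 regulators were higher in the RV. Ppargc1a, the PGC-1 alpha coactivator, was 1.57 ± 0.19 higher on the log2 scale and Pdk4 1.57 ± 0.27. The 7 members that were lower in the RV were Plin5, Mlycd, Acads, Acaa1a, Esrra, Pdk2 and Ucp2, with Esrra, the ERR alpha receptor, at -0.86 ± 0.11 and Acads at -0.79 ± 0.15 the farthest. Esrra and Esrrg, 2 receptors of 1 family, thus lay on opposite sides, at 3448 to 6149 in the LV and 2193 to 2737 in the RV for Esrra. The groups did not overlap for Esrra, Acaa1a, Pdk2 and Ucp2. Cpt1b at 0.07 ± 0.11, Etfb at -0.01 ± 0.12 and Acot2 at -0.06 ± 0.15 did not pass.

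In banded rats of the same stage the division was present in AOB-F, while the median difference was smaller in PAB-F. In AOB-F 25 members were higher in the RV and 3 lower (32% and 35.1% of all genes). The median over the members was 0.57, beside -0.05 for all genes. In PAB-F 16 were higher and 10 lower (32.1% and 29% of all genes), with a median of 0.12 beside 0.03. Of the called members in AOB-F, 17 were higher without overlap (17.4% of all genes) and 0 lower (12.9%). In PAB-F only 2 were higher without overlap (13.9% of all genes) and 0 lower (9.29%). The most significant in AOB-F was Ppargc1a, at 390.2, 538.1 and 1124 in the LV and 1781, 2057 and 2825 in the RV, a log2 difference of 1.78 ± 0.21 (adjusted p = 1.07e-10 by edgeR), followed by Esrrg, Etfdh and Eci2. In PAB-F it was Etfdh, at 1748, 1938 and 5457 in the LV and 3802, 6370 and 7226 in the RV, a log2 difference of 1.30 ± 0.23 (adjusted p = 2.20e-06 by edgeR), followed by Etfa, Cd36 and Acadl. The highest LV value of Etfdh was that of LV PAB-F replicate 5, 1 of the libraries that stand apart, and without those libraries 17 members were higher and 9 lower in PAB-F, with a median of 0.22. With plain total counts the PAB-F median was 0.05.

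In the H groups the ventricles differed less. In Sham-H 2 members, Ppargc1a and Esrrg, were higher in the RV and 0 lower (9.62% and 11.4% of all genes). Esrrg ran from 759.2 through 1135 to 1406 in the LV and from 1533 through 1571 to 1713 in the RV without overlap (1.61% of all genes were higher without overlap), a log2 difference of 0.56 ± 0.13 (adjusted p = 0.0012 by edgeR). Ppargc1a, at 614.3 to 2114 in the LV and 1639 to 2632 in the RV, differed by 0.57 ± 0.21 (adjusted p = 0.0400 by edgeR). With the rat as a block 12 members were higher in the RV (17.7% of all genes), Acsl1, Acadm, Etfdh and Pdk4 among them. Without LV Sham-H replicates 4 and 5, with a mean member level of 7.67 each against a median of 7.63 in LV Sham-F, 0 members passed, and without all 5 LV libraries that stand apart Esrrg alone did. Leaving out 1 library gave 1 to 7 calls. The count was 7 in the absence of LV Sham-H replicate 7, 5 when LV Sham-H replicate 1 was dropped and 4 for LV Sham-H replicate 2, and it was 1 for LV Sham-H replicates 4, 5 and 6 and RV Sham-H replicates 3, 5 and 7. In AOB-H 1 member, Etfb, was higher in the RV and 0 lower (1.57% and 6.41% of all genes), 6 with the rat as a block (4.46% of all genes), and 0 without LV AOB-H replicate 6 or any of RV AOB-H replicates 2 to 5. In PAB-H 0 were higher and 0 lower by edgeR (0.1% and 0.0251% of all genes), with 2 at an unadjusted p under 0.05 and 0 by DESeq2.

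The stages were compared within sham rats, where age and time after surgery cannot be told apart. In the LV 5 members were higher in Sham-F than in Sham-H and 21 lower (27.8% and 29.6% of all genes), with a median of -0.35 beside 0.04 for all genes. In the RV 0 members differed by edgeR (0.0502% of all genes, 0 members at an unadjusted p under 0.05, 0 by DESeq2). Tested directly, the stage difference was more positive in the RV for 17 members and more negative for 4 (23% and 18.6% of all genes), and for 18 and 6 without the 5 LV libraries that stand apart (29.1% and 26.5%).

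Etfdh led again, at 1890, 6069 and 7702 in LV Sham-H, 1501, 1910 and 2705 in LV Sham-F, and a median of 7533 in RV Sham-H against 7864 in RV Sham-F. The log2 fold change over stage in the LV was -1.45 ± 0.20 (adjusted p = 9.43e-08 by edgeR) and the RV minus LV difference 1.51 ± 0.28 (adjusted p = 0.00021). Eci2 fell by 1.16 ± 0.16, Decr1 by 1.08 ± 0.18 and Hadha by 0.93 ± 0.16 on the log2 scale in the LV. Plin5, Acads, Acaa1a, Esrra and Ucp2 rose. The groups overlapped for each of the 26 members, and of all genes only 1.26% were higher and 0.418% lower without overlap. Without the 5 LV libraries that stand apart 7 members rose and 21 fell (32.2% and 33.4% of all genes).

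The level of the members followed the main axis of the other genes. Over the 82 libraries the mean log2 CPM (depth-scaled counts) of the members and that axis had a Pearson r of -0.81 and a Spearman rho of -0.82, a description of libraries that share groups, rats and depth. LV Sham-F lay between 47.3 and 82.4 on the axis and RV Sham-F between -54.2 and -30.7. LV Sham-H replicate 4, at 75.4 on the axis, had a mean member level of 7.67, near the 7.63 median of LV Sham-F, whereas LV PAB-F replicate 5, at 2.8, had 8.12 against 7.33 to 7.56 in its group mates. The other cell types moved along as well. The LV Sham-F libraries held 0.197% to 0.359% of counts in endothelial markers against 0.0643% to 0.109% in RV Sham-F, 0.0692% to 0.189% against 0.0263% to 0.071% in fibroblast markers, and 8.53% to 10.3% against 11.5% to 14.3% in cardiomyocyte markers. Of the markers 6 of 7 endothelial, 6 of 9 fibroblast, 5 of 7 mural and 3 of 8 macrophage genes were lower in the RV, while 4 of 9 cardiomyocyte genes were higher and 2 lower. Their part in the ventricular difference was not tested.

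**Figure D5:**
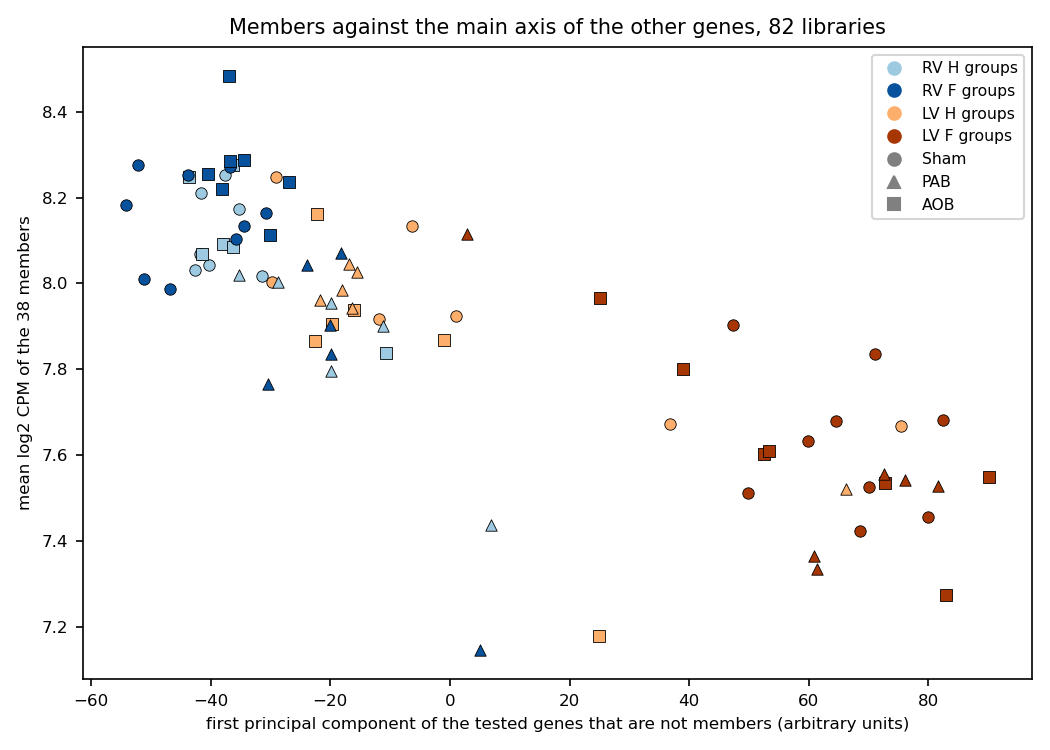
Mean log2 CPM of the 38 members (vertical axis) against the first principal component of the genes that are no members (horizontal axis, arbitrary units) for the 82 libraries, with colour for ventricle and stage and shape for the operation. Most LV libraries of the F groups sit at the right and low and most RV libraries at the left and high, except RV PAB-F replicate 1, which has the lowest level of all, RV PAB-H replicate 2 with a level of 7.44 and LV PAB-F replicate 5, which is high at 8.12, and 4 LV libraries of the H groups lie at 25 or above.

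Around the members, 82 further genes of lipid and glucose entry were tested from 10 lists (84 of 90 were in the table). In RV PAB-F 2 of the 82 rose and 5 fell (7.66% and 3.42% of all genes). Pdk3, a pyruvate dehydrogenase kinase of low level, rose by 1.25 ± 0.26 on the log2 scale, from a median of 21.97 in RV Sham-F to 43.79, and Bdh1, which oxidizes the ketone body hydroxybutyrate, rose by 0.57 ± 0.15, from 753.1 to 1150. Ehhadh, the peroxisomal bifunctional enzyme, fell by 0.75 ± 0.19, from 371.7 to 218.6, and Rxrg, a partner of the PPAR receptors, by 0.67 ± 0.16, from 2016 to 1292. In RV PAB-H 1 rose (Acsl5) and 1 fell (Rxrg), beside 3.91% and 0.594% of all genes. In LV AOB-F 9 rose and 6 fell (8.54% and 4.35% of all genes). Plin2 came first at 1.78 ± 0.26, then Acsl5 at 0.67 ± 0.20. Klf15, a regulator of fasting metabolism, followed at -0.60 ± 0.15 and Acot9 at 0.58 ± 0.17. Plin2 was highest in the pair of rats described above, but its median over LV AOB-F, 939.1, also lay above the LV Sham-F range of 595 to 932.6. Its fold change without that pair is not given here. In LV AOB-H 0 of the 82 passed by edgeR. Between the ventricles of Sham-F rats 40 were higher in the RV and 27 lower (35.6% and 38.6% of all genes). Gpihbp1, which anchors lipoprotein lipase to the capillary wall, had a log2 difference (RV over LV) of -2.74 ± 0.24 and Fabp4 of -2.13 ± 0.24. Both are expressed in endothelial cells. The endothelial, fibroblast, mural and macrophage markers called in this comparison were lower in the RV as well. Their part in these differences was not tested. Acadsb, the dehydrogenase for branched short chains, was 2.09 ± 0.19 higher in the RV, and Gabpa, a regulator of mitochondrial genes, 1.68 ± 0.18.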

How the data were processed

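Cardiomyocyte RNA of 82 libraries was sequenced after removal of ribosomal RNA. The authors trimmed reads with Trim Galore, aligned them with STAR to Rnor6.0 and counted them per gene with featureCounts, leaving out reads over more than 1 gene; the deposited counts were used for every test. The authors also deposited normalized counts, a signal per gene obtained with DESeq2 1.28.1 (counts over 1 size factor per library, 0.639 to 1.57), which only served to check the table, and FPKM values, used here to compare levels between genes. Samples were grouped by the labels.

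From the counts, 1 quasi-likelihood fit over all 12 groups was made with edgeR 4.0.16 in R 4.3.3 (TMM factors, filterByExpr, contrasts, adjusted p under 0.05). Normalized counts in the text are counts over the TMM library size times its mean, 13279120. Fold changes are contrasts of that fit, with SE from its F statistic. DESeq2 1.42.0 was an alternative. Functions were tested on simulated data. No library was a copy of another (smallest chi-square per gene between 2 libraries 4.04). Precision rests on the number of rats and on depth.

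The 38 members and the lists were chosen with earlier results of these data known. Members were named by role, with lowest, median and highest counts for those called under load and, for other comparisons, up to 4 with the smallest p (a few more were added after their values were seen). Of further pathway genes up to 4 with the largest change were named. RV and LV libraries of 1 rat were paired by the labels, and their deviations from group means correlated with a median r of 0.186 to 0.297 by condition (-0.069 to -0.014 for different rats), so fits with the rat as a block are given where they change a count. Replicates are separate animals.

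The alternatives were other scalings, no filter, DESeq2, sex, gene length, blocks, only the groups compared, the study's criteria and leaving out libraries. Proteins and a genome were not used here.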

Additional observations from a re-analysis of the deposited data

Results flagged for a closer look

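For members with values in the report, 119 pairs of member and group were examined for a library whose gap to its nearest neighbour exceeded Dixon's 95% limit, and 20 had one; chance gives about 1 in 20. LV PAB-F replicate 5 was high in 5 of them: Hadha at 13420 (group median 5726), Acadl at 17550 (8694), Cd36 at 5782 (3220), Etfa at 5252 (2599) and Etfdh at 5457 (1938). LV PAB-H replicate 2 was low for Hadha at 8002 (14540) and Hadh at 3500 (4623), and LV AOB-H replicate 6 was low for Etfb at 1197 (2689) and Fabp3 at 6608 (17460). These libraries also stand apart on the main axis of the other genes.

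In AOB-F rats, LV replicate 5 was high for Acacb at 18910 (12980) and Ppargc1a at 1124 (538.1), and RV replicate 2 for Ppargc1a at 2825 (2057). Angptl4 was high in LV PAB-F replicate 2 at 307.2 (115.2) and in RV PAB-H replicate 3 at 304.5 (75.7). Eci1 was low in RV AOB-H replicate 6 at 2249 (3584) and in RV Sham-F replicate 6 at 2923 (3820). Single libraries were also apart for Etfb in LV Sham-F replicate 7 at 4634 (3221), Hadha in RV Sham-H replicate 3 at 18650 (15960), Decr1 in LV Sham-F replicate 8 at 1637 (1048) and Etfdh in RV PAB-F replicate 1 at 3802 (6370). All are normalized counts.

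Among the contrasts of responses, 2 differed by a test of the difference itself. Between the failing RV and the failing LV 4 members differed, with Hadha at -0.95, Decr1 at -0.94, Angptl4 at -2.51 and Cpt1a at -0.52 on the log2 scale (RV minus LV). Between the stage differences of the sham ventricles 21 members differed, led by Etfdh at 1.51, Eci2 at 1.17, Decr1 at 1.279 and Acadl at 1.07.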

How the results depend on the processing

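Counts below are members passing in either direction. The share of all genes is given above for only some of these fits, so a moved count need not be particular to the members. In RV PAB-F there were 5, with 2 under a block on replicate number, 11 with DESeq2, 12 with its prior, 12 with only the compared groups, 0 by the study's criteria and 1 to 8 when 1 library was left out. In RV PAB-H 1 became 0 with sex, the number block, the principal component or the study's criteria, 11 with only the compared groups, and 0 to 3 without 1 library. In LV AOB-F 4 became 11 with the principal component, 11 without the 5 LV libraries that stand apart, 0 without AOB-F rats 6 and 7, 0 with only the compared groups, 1 by the study's criteria and 1 to 10 without 1 library. Between the ventricles, Sham-H moved from 2 to 4 with total counts, 1 with no filter, 12 with the rat as a block, 14 with that block and gene length, 0 without LV Sham-H replicates 4 and 5, 1 without all 5 LV libraries, 0 by the study's criteria and 1 to 7 without 1 library. AOB-H moved from 1 to 0 with total counts, no filter, the 5 LV libraries left out or the study's criteria, to 2 with gene length, to 6 with the rat as a block with or without gene length, and to 0 to 2 without 1 library. By the study's criteria there were 14 in Sham-F, 7 in PAB-F, 12 in AOB-F and 3 over stage in the LV. The PAB-F response (RV minus LV) went from 0 to 2 with the rat as a block, with or without gene length. The failure response went from 4 to 12 without the 5 LV libraries, to 0 without AOB-F rats 6 and 7, and to 0 to 6 without 1 library. The rat block moved no other count by over 1.5 times. The number block pairs different rats, whose deviations did not correlate in every pair. The cause of these changes was not tested, beyond the fewer libraries or other criteria that define them. The principal component and the sets of libraries left out were chosen after the data were seen. No called log2 fold change of a member changed its sign. Depth and 6 to 9 rats per group limit small changes, above all for Pnpla2, Acot1 and Angptl4.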
